A study of Homo sapiens with 12 samples.

Results

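Integrins are the cell-surface receptors with which cells hold on to their surroundings, and collagens are among the matrix proteins they hold on to. An integrin is a pair of 1 alpha and 1 beta subunit, and the pairing decides what it binds. Plasma cells and myeloma cells use integrins to stay in the bone marrow, where the pair of ITGA4 and ITGB1 binds VCAM1 and fibronectin on and around stromal cells. Collagens are trimers that are hydroxylated and folded in the endoplasmic reticulum, and they are grouped by the structure they build, such as fibrils, basement membrane networks, beaded filaments, or the fibril-associated FACIT collagens that decorate fibrils.

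The integrin and collagen genes were taken by symbol from the whole gene table, and 70 of 59276 genes matched. They are 44 collagen genes and 26 genes with an integrin symbol, of which 18 encode alpha subunits and 7 encode beta subunits. The remaining one, ITGBL1, is named after the beta subunits but is not a subunit, and ITGB7, the usual partner of ITGAE, was left out by the rule that chose the genes. A level above 1 on the log2(TPM+1) scale in the mean of at least 1 group was reached by 24 of the 70, namely 9 integrin and 15 collagen genes.

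The data are RNA-seq of JJN3, a human multiple myeloma cell line, in 4 groups of 3 libraries each. DMSO and MS023 are JJN3 cells given vehicle or 10 µM of MS023, an inhibitor of the type I protein arginine methyltransferases, for 3 days. The groups isgCtrl and PRMT1-KO are JJN3 cells that carry Cas9 and a doxycycline-inducible guide after lentiviral transduction, sorting for mCherry and puromycin selection, and both were given doxycycline for 3 days. The guide is a control in isgCtrl and iPRMT1_1, against PRMT1, in PRMT1-KO (genotype iPRMT1 in the labels). Between isgCtrl and DMSO the Cas9, the vectors, the selection, the doxycycline and the vehicle all differ, and their shares in a difference cannot be told apart. PRMT1-KO rests on 1 guide, and the labels do not say whether replicates came from separate cultures, so p-values measure the spread between these libraries.

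By the labels each library was sequenced to over 60 M read pairs, but TPM are scaled to a fixed sum per library, so the depth behind a single value is unknown. The libraries held between 20988 and 22241 genes above 0. PRMT1 itself, on chromosome 19, was 9.76, 9.76 and 9.73 log2(TPM+1) in isgCtrl and 8.24, 8.28 and 8.24 in PRMT1-KO, where the log2 fold change was -1.50 (SE 0.04, limma with Benjamini-Hochberg (BH) adjustment, BH-adjusted p = 7.2e-04). The plasma cell genes SDC1, TNFRSF17, IRF4 and XBP1 were above 6 in all 12 libraries, but MZB1 was 6.70 to 6.75 in DMSO and 1.42 to 1.77 in isgCtrl, and SLAMF7 was 3.28 to 3.46 in DMSO and 0.20 to 0.60 in isgCtrl. The 3 T cell markers summed to at most 0.535 TPM in every library, with CD3G at 0 throughout and CD3E above 0 throughout.

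Some low collagens, picked after their values were seen, were higher in isgCtrl 1 and isgCtrl 2 than in isgCtrl 3. This bears on every comparison that uses isgCtrl. COL1A1, a chain of the main fibril-forming collagen, was 1.04 and 2.82 in these libraries and 0.42 in isgCtrl 3. COL1A2, the other chain of the same trimer, was 1.39, 2.48 and 0.51, and COL3A1, another fibril-forming collagen, was 1.13, 1.74 and 0.35. COL18A1, a basement membrane collagen and the precursor of endostatin, was 1.54, 1.48 and 0.21. With MS023 COL1A1 and COL1A2 reached the level of isgCtrl 1, at 1.01 to 1.57 and 1.05 to 1.48, while COL3A1 and COL18A1 were at most 1.10 and 1.18. In each of these 4 genes isgCtrl 3 lay below the other two libraries of its group and within or below the range of the 3 DMSO libraries. COL3A1 and COL18A1 had a mean above 1 in isgCtrl only, and so through these libraries. Other low collagens went otherwise, as COL4A5 (1.27, 0.88 and 1.62) and COL2A1 were highest in isgCtrl 3. Among 28 collagens with lower means and some value above 0, isgCtrl 1, 2 and 3 were the highest library in 1, 6 and 3. For each call that involves isgCtrl and was lost without isgCtrl 1 and isgCtrl 2, the value without them is therefore also given. A single isgCtrl library remains then, so a lost call there cannot be put down to these libraries, and only the effect size is read.

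**Figure D1:**
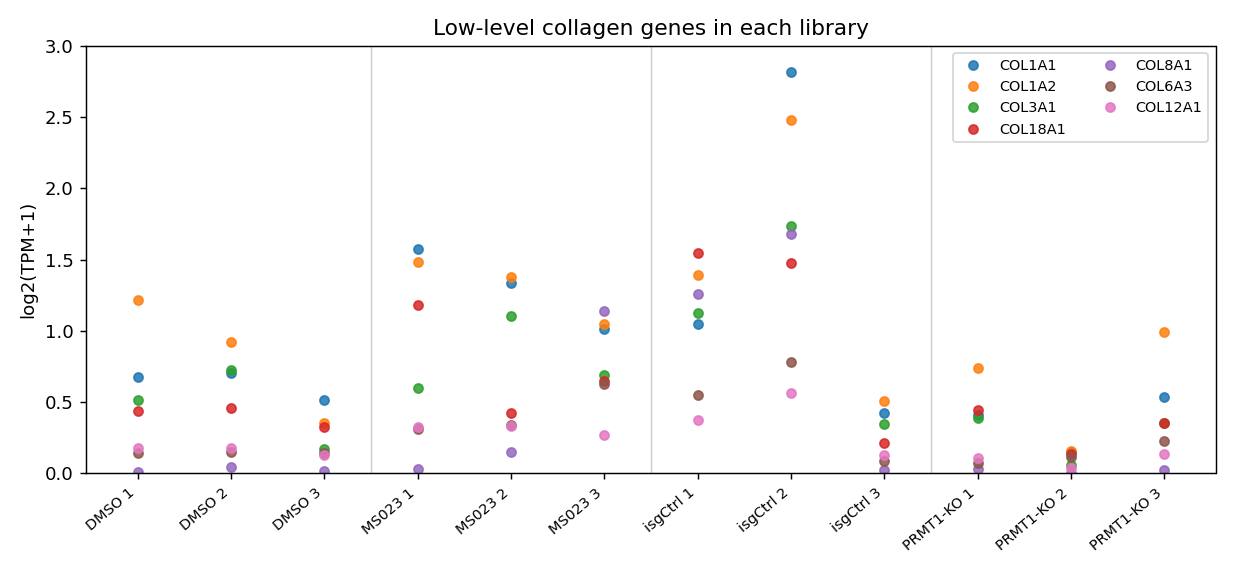
Levels of 7 collagens in each of the 12 libraries. The vertical axis is log2(TPM+1), the horizontal axis gives the libraries by group and replicate, and each point is 1 gene in 1 library. COL1A1 reached 2.82 in isgCtrl 2, and COL8A1 was above 1 in isgCtrl 1, isgCtrl 2 and MS023 3.

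Marker genes of other cell types were at low levels except THY1. Some of their lists moved with these collagens and others did not. The 4 monocyte markers summed to 1.04 and 0.716 TPM in isgCtrl 1 and 2 and to 0.125 TPM in isgCtrl 3, against 0.0911 to 0.671 TPM in DMSO. The 3 endothelial markers summed to 0.257, 0.205 and 0.0599 TPM in isgCtrl 1, 2 and 3, against 0.0787 to 0.153 TPM in DMSO. Both lists were thus higher in isgCtrl 1 and 2 than in isgCtrl 3 and than in every DMSO library. The 7 fibroblast markers summed to 2.97, 3.70 and 5.96 TPM in isgCtrl 1, 2 and 3, against 5.46 to 12.5 TPM in DMSO, an order set by THY1, which was 1.25, 0.99 and 2.64 log2(TPM+1). The full list thus ran against the order of the collagens. The other 6, chosen after their values were seen, summed to 1.59, 2.71 and 0.727 TPM, against 0.514 to 1.80 TPM in DMSO. Their order in isgCtrl follows that of the collagens only because THY1 was left out, and isgCtrl 1 lay within the range of DMSO. DCN, 1 of the 6, was 0.64, 0.97 and 0.26. The 3 T cell markers summed to 0.183, 0.0944 and 0.0895 TPM in isgCtrl 1, 2 and 3, below the 0.278 to 0.519 TPM in DMSO. In MS023 3 the monocyte markers summed to 3.08 TPM, with CD14 at 1.62 log2(TPM+1), and the endothelial markers to 0.363 TPM. The part of these genes in the collagen values was not tested.

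The promoter windows of 3 collagens are shown because they belong to the genes with the widest differences between groups and to a pair of genes that share a promoter. The sequences are those of RefSeq for GRCh38.p14, each from 250 bases before to 50 bases after the start of the gene, and entries were found for 49 of the 70 genes and for 16 of the 24 above 1. COL6A2 on chromosome 21, chr21:46097862-46098161 on the plus strand, encodes a chain of type VI collagen, which forms beaded filaments. The capitals in its window mark the GC box GGGCGG on either strand and the TATA box TATAAA, found 4 times and 1 time.
COL6A2: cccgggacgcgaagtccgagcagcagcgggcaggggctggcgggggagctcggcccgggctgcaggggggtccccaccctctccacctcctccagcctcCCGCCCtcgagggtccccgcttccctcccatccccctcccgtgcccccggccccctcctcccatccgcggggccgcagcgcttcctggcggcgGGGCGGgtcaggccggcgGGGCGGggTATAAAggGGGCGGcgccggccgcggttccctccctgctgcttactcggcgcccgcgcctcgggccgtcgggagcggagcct

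Of all 35116 promoter windows of the same length, 45.0% hold the GC box and 11.5% the TATA box, searched on both strands, so the GC box on its own is common. The AP-1 site TGANTCA, held by 7.71% of windows, was not found in the window of COL6A2, COL4A3 or COL4A4. COL4A3 and COL4A4 encode chains of the basement membrane collagen network best known from the kidney glomerulus. They lie head to head on chromosome 2, with 170 bases between them by GENCODE. The RefSeq windows are chr2:227164374-227164673 on the plus strand for COL4A3 and chr2:227164156-227164455 on the minus strand for COL4A4. By GENCODE COL4A4 reaches to 227164453, so its RefSeq window follows another start and lies almost wholly inside the GENCODE gene. The windows of COL4A3 and COL4A4 share 82 bases, which are in capitals below as each strand reads them.
COL4A3: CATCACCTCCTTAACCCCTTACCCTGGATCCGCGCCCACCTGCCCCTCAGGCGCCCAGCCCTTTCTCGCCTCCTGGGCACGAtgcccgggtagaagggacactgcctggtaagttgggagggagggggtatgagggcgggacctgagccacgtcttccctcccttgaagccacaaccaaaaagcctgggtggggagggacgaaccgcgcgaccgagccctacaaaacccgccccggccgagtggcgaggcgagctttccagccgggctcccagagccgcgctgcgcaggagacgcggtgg
COL4A4: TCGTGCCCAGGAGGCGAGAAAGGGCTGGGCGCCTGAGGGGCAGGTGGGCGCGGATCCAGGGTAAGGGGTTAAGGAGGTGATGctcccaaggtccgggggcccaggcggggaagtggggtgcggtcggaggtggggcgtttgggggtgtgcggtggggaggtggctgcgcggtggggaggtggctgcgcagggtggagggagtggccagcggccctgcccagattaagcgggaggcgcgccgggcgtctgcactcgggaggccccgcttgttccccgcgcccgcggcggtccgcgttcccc

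In vehicle-treated cells the integrins were far more abundant than the collagens on a scale per transcript length. Mean TPM in DMSO summed to 385 over the 26 integrin genes and to 59.5 over the 44 collagen genes. The 2 leading genes were ITGB5, a partner of ITGAV in a vitronectin receptor, at 178 ± 10.1 TPM (SD, n = 3), and ITGAE, whose product binds E-cadherin, at 110 ± 3.54 TPM (SD, n = 3). ITGAE overlaps HASPIN on the other strand, and since the strandedness of the counting is not given in the sources used here, the share of each gene in this value is uncertain. ITGB1, the most widely shared beta subunit, was 35.3 ± 1.72 TPM, ITGA4 was 28.0 ± 1.59 TPM and ITGB8, which with ITGAV binds latent TGF-beta, was 17.9 ± 0.811 TPM (SD, n = 3 each).

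These 5 integrins kept their order in DMSO with no overlap between neighbours. Below them came ITGAV, the alpha subunit that pairs with ITGB5 and ITGB8, with 2.67, 3.10 and 2.60 log2(TPM+1) in DMSO 1, 2 and 3. ITGAL, the alpha subunit of the leukocyte receptor for ICAM1 and ICAM2, was 2.02, 2.81 and 1.71 and overlapped ITGAV in range. ITGB2, the only known partner of ITGAL, stayed below 1 in every library, from 0.43 to 0.90 in DMSO and from 0.00 to 0.08 in PRMT1-KO. ITGB4, the laminin-binding partner of ITGA6 in epithelia, and ITGA3, which with ITGB1 binds laminins, were near the threshold, at 1.03 ± 0.18 and 0.89 ± 0.20 (SD, n = 3) in DMSO.

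Among the collagens the fibril-associated and minor fibrillar types led. COL9A3 and COL9A2, chains of the cartilage collagen type IX, were 13.2 ± 1.77 and 11.5 ± 1.48 TPM in DMSO (SD, n = 3), and their ranges overlapped. COL9A3 overlaps TCFL5, and COL18A1 overlaps SLC19A1, each on the other strand, so the share of each gene in these values is uncertain as for ITGAE. COL19A1, another FACIT-like collagen, was 8.56 ± 1.62 TPM and COL5A1, which helps to nucleate fibrils, 7.38 ± 2.34 TPM, again with overlapping ranges. The fibrillar COL24A1 followed with 3.95 ± 0.407 TPM, and COL27A1, COL4A3, COL4A4 and COL6A1 were between 1.79 and 2.45 TPM in the DMSO means. The chains of type I collagen, which dominate connective tissue, were 0.552 ± 0.107 TPM for COL1A1 and 0.830 ± 0.524 TPM for COL1A2.

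The first question was what inhibition of the type I enzymes did to these genes. MS023 lowered ITGA4, ITGB8 and ITGB4 and the collagen COL19A1, and raised ITGA3 and the collagens COL1A1, COL9A2 and COL6A2. Genes were called at a Benjamini-Hochberg adjusted p under 0.05 in limma with an absolute log2 fold change above 0.48, among genes with a mean above 1 in either group. By this rule 8 of 21 tested integrin and collagen genes (38.1%) were called, 4 lower and 4 higher, against 30.9% of all 12903 genes tested, 19.3% lower and 11.6% higher. ITGA3, COL1A1, COL1A2 and COL6A2 passed the filter on low values through MS023 only and ITGB4 through DMSO only, so the count is a description. The groups did not overlap in 14 of the 21 (66.7%), against 59.5% of all genes. The median log2 fold change was -0.16 over the 21 and -0.11 over all genes, and the latter was -0.01 after median-ratio scaling. This shift bears on the values with MS023 below, but less on low genes. ITGB4, for example, went from -0.49 to -0.44 under that scaling.

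ITGA4 had the log2 fold change farthest from 0 of the 21. The gene lies on chromosome 2 from 181457202 to 181538940 on the plus strand (GRCh38, as all positions here), and overlaps CERKL on the other strand. It was 4.94, 4.78 and 4.86 log2(TPM+1) in DMSO and 3.97, 3.52 and 3.79 with MS023. All treated libraries lay below all control libraries, and the mean TPM with MS023 was 45.2% of that in DMSO. The log2 fold change was -1.10 (SE 0.13, limma, BH-adjusted p = 0.00105), and the gene was called under all 14 alternatives in which it was tested. Its partner ITGB1 was 5.14 to 5.26 in DMSO and 4.77 to 5.03 with MS023, a log2 fold change of -0.25 that was not called (SE 0.09, limma, BH-adjusted p = 0.067).

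All 4 tested beta subunits had negative log2 fold changes with MS023, also under median-ratio and quantile scaling. Of them 2 were called (50%), against 30.9% of all genes, and with so few genes this is a description. The same 4 were also negative between isgCtrl and DMSO, so this is not particular to MS023. ITGB8 (chromosome 7, 20330702 to 20415754, plus strand) was 4.31, 4.20 and 4.22 in DMSO and 3.42, 3.11 and 3.66 with MS023, again without overlap, and fell by 0.84 on the log2 scale (SE 0.14, limma, BH-adjusted p = 0.00453). ITGB4 was 1.11, 0.83 and 1.16 in DMSO and 0.69, 0.63 and 0.30 with MS023, and fell by 0.49 (SE 0.14, limma, BH-adjusted p = 0.0283). ITGB4 entered the test through its DMSO mean only, lies just past both thresholds and overlaps GALK1 on the other strand, and it was called under 3 of 11 alternatives. ITGB5 was 7.40 to 7.56 in DMSO and 7.09 to 7.27 with MS023, a log2 fold change of -0.33 that passed the p threshold but not the fold threshold (SE 0.08, limma, BH-adjusted p = 0.0176).

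ITGA3, on chromosome 17 from 50055968 to 50090481 on the plus strand, moved the other way. It was 1.08, 0.69 and 0.92 in DMSO and 1.62, 1.72 and 1.51 with MS023, so that every treated library was above every control, and the mean TPM was 2.38 times that in DMSO. The log2 fold change was 0.72 (SE 0.12, limma, BH-adjusted p = 0.00398), for a gene that entered the test through its MS023 mean only. ITGAL was 2.02, 2.81 and 1.71 in DMSO and 2.99, 3.41 and 2.57 with MS023, and the groups overlapped. Its log2 fold change of 0.81 had an interval from -0.0053 to 1.63 and was not called (limma, BH-adjusted p = 0.0901). It was called without DMSO 2, where the value was 1.13, with the replicate block and with all 12 libraries in one fit (limma, BH-adjusted p = 0.0239, 0.00828 and 0.0362), and under none of the other 11 alternatives.

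The remaining alpha subunits were not called. ITGAE was 6.80, 6.84 and 6.75 in DMSO and 6.62, 6.53 and 6.45 with MS023, a log2 fold change of -0.26 under the fold threshold (SE 0.07, limma, BH-adjusted p = 0.0246). ITGAV was 2.60 to 3.10 in DMSO and 2.48 to 2.65 with MS023, and its log2 fold change of -0.24 had an interval from -0.59 to 0.12. Summed over the 26 integrin genes, TPM ranged from 378 to 397 in DMSO and from 291 to 313 with MS023, without overlap, and most of these sums is ITGB5 and ITGAE.

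Of the 12 tested collagens 3 rose, 1 fell and 8 were not called with MS023. The share called was 33.3%, close to the 30.9% of all genes. COL1A1 and COL6A2, which rose, entered the test through MS023 only, as did COL1A2, so the count is a description. COL19A1 (chromosome 6, 69866556 to 70212468, plus strand) fell from 3.35, 3.43 and 2.95 in DMSO to 2.61, 2.33 and 2.37, which is 51.6% of the mean TPM, with a log2 fold change of -0.81 (SE 0.15, limma, BH-adjusted p = 0.00626). COL19A1 overlaps LMBRD1 on the other strand. COL9A2 (chromosome 1, 40300489 to 40317813, minus strand) rose from 3.52, 3.57 and 3.83 to 4.27, 4.30 and 4.37, a log2 fold change of 0.67 (SE 0.10, limma, BH-adjusted p = 0.0026). COL9A3, its partner in type IX collagen, was not called, with 3.67, 4.02 and 3.78 in DMSO and 4.08, 4.09 and 3.64 with MS023, a log2 fold change of 0.11 (interval from -0.26 to 0.49).

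The other collagens that rose were low. COL1A1 was 0.68, 0.70 and 0.52 in DMSO and 1.57, 1.34 and 1.01 with MS023, and COL6A2 was 0.99, 0.83 and 1.07 and then 1.57, 1.30 and 1.71. Their log2 fold changes were 0.68 (SE 0.15) and 0.56 (SE 0.13), both with a BH-adjusted p of 0.0121 by limma, and both entered the test through MS023 only. COL1A1 was not called when all 12 libraries were fitted together (limma, BH-adjusted p = 0.250), a fit in which the spread of the isgCtrl libraries enters. COL6A2 was not called without MS023 3, where its log2 fold change was 0.47.

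The chains that pair with these genes had values in the same direction that were not called. COL1A2 was 1.22, 0.92 and 0.36 in DMSO and 1.48, 1.38 and 1.05 with MS023, with overlap and a log2 fold change of 0.47 (interval from -0.10 to 1.05). COL6A1 was 1.40, 1.60 and 1.44 and then 1.72, 1.71 and 1.70, a log2 fold change of 0.23 that passed the p threshold only (SE 0.07, limma, BH-adjusted p = 0.0422). COL24A1 was 2.22 to 2.44 in DMSO and 2.61 to 2.71 with MS023, and its log2 fold change of 0.35 likewise stayed under the fold threshold (SE 0.08, limma, BH-adjusted p = 0.0136). For COL5A1 (-0.64, interval from -1.51 to 0.23), COL4A3 (-0.25), COL4A4 (0.19) and COL27A1 (-0.16) the log2 fold changes did not pass the p threshold.

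**Figure D2:**
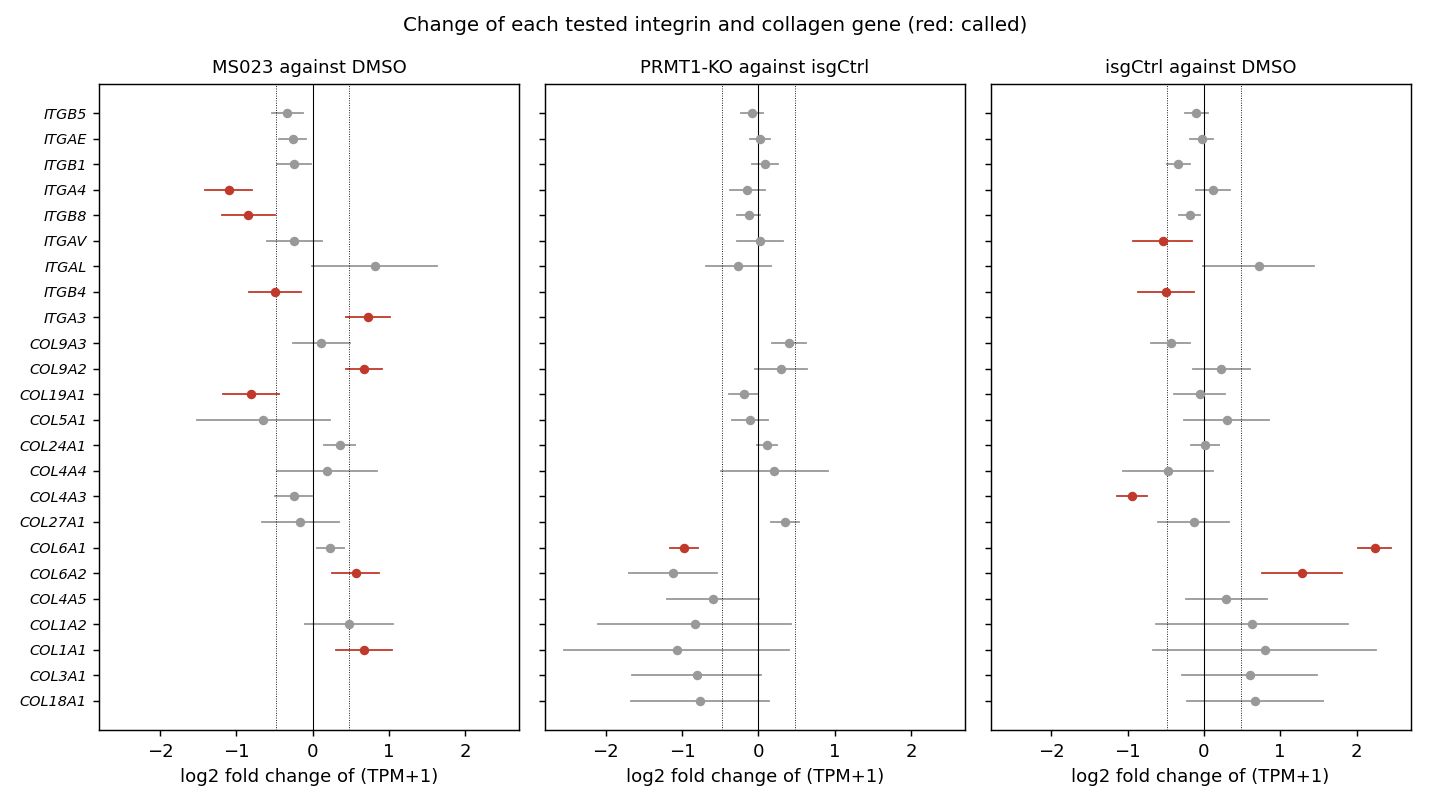
Log2 fold change of (TPM+1) of each tested integrin and collagen gene in 3 comparisons, with limma's 95% interval as a line. Red marks genes called by limma, dotted lines are at 0.48 and -0.48, and an empty row means that the gene was not tested there. With MS023 8 genes are red, in PRMT1-KO only COL6A1 (-0.97), and between the control groups COL6A1 (2.24) lies farthest from 0.

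The second question was whether targeting PRMT1 alone moved these genes. In PRMT1-KO cells only COL6A1 was called, and it was lower than in isgCtrl. This is 1 of 21 tested genes (4.76%), against 0.781% of all 12285 genes tested, and 0.366% called lower. Groups did not overlap in 6 of the 21 (28.6%), against 26.7% of all genes, and the median log2 fold change was -0.13 over the 21 and -0.04 over all genes. COL1A1, COL1A2, COL3A1, COL18A1 and COL4A5 passed the filter on low values through isgCtrl only. None of the 7 tested integrins was called, and 0 of them had an unadjusted p under 0.05 in limma, a level reached by 18.6% of all genes.

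COL6A1 encodes the chain of type VI collagen that pairs with the COL6A2 product, and was 3.71, 3.84 and 3.61 in isgCtrl and 2.79, 2.72 and 2.73 in PRMT1-KO. The groups were far apart, and mean TPM went from 12.2 ± 1.08 to 5.72 ± 0.184 (SD, n = 3), or 46.8% of the control. The log2 fold change was -0.97 (SE 0.07, limma, BH-adjusted p = 0.0153). The value stayed between -1.08 and -0.86 in every alternative. The call was kept when isgCtrl 3 was left out and lost when any other of the 6 libraries was, with BH-adjusted p up to 0.0899 by limma. Over all genes, too, the share called in this comparison fell from 0.781% to between 0.0162% and 0.17% with single libraries left out. Without isgCtrl 1 and isgCtrl 2 the log2 fold change of COL6A1 was -0.86, with a single isgCtrl library left.

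COL6A2 was 2.36, 2.59 and 1.78 in isgCtrl and 0.92, 1.06 and 1.39 in PRMT1-KO, and the groups did not overlap. Its log2 fold change of -1.12 was larger than that of COL6A1 but with a wider spread, and it was not called (SE 0.23, limma, BH-adjusted p = 0.0989). With a trend in eBayes or with all 12 libraries in one fit it was called, with limma giving BH-adjusted p of 0.0437 and 0.0189. Without isgCtrl 1 and isgCtrl 2 the value was -0.65, with a single isgCtrl library left. Both genes lie on chromosome 21 in the same orientation, COL6A1 from 45981770 to 46005050 and COL6A2 from 46098112 to 46132848, with 93.1 kb between them.

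The 4 collagens picked above for higher values in isgCtrl 1 and isgCtrl 2 than in isgCtrl 3 had wide intervals in this comparison. COL1A1 was 0.41, 0.15 and 0.53 in PRMT1-KO and had a log2 fold change of -1.07 with an interval from -2.54 to 0.41, and COL1A2 was 0.74, 0.16 and 0.99 with -0.83, from -2.09 to 0.43. For COL3A1 (0.39, 0.05 and 0.35) and COL18A1 (0.44, 0.13 and 0.35) the values were -0.80 and -0.77. In all of them isgCtrl 3 lay within the range of PRMT1-KO. COL4A5, another basement membrane chain, was 1.27, 0.88 and 1.62 in isgCtrl and 0.47, 1.06 and 0.47 in PRMT1-KO, with overlap, and its log2 fold change was -0.59 with an interval from -1.19 to 0.01.

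The type IX chains and COL27A1 had positive values that did not pass the adjusted threshold. COL9A3 was 3.44, 3.30 and 3.42 in isgCtrl and 3.68, 3.71 and 3.96 in PRMT1-KO, without overlap, with a log2 fold change of 0.40 (SE 0.09, limma, BH-adjusted p = 0.114). COL27A1, with 1.34, 1.49 and 1.40 and then 1.82, 1.64 and 1.81, also did not overlap, at 0.35 (SE 0.07, limma, BH-adjusted p = 0.101). COL9A2 (0.30), COL4A4 (0.21), COL24A1 (0.12), COL5A1 (-0.11) and COL19A1 (-0.19) were closer to 0.

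Integrin values in PRMT1-KO stayed close to the control. ITGA4 was 5.12, 4.84 and 4.97 in isgCtrl and 4.83, 4.94 and 4.73 in PRMT1-KO, a log2 fold change of -0.14 with an interval from -0.37 to 0.08, so that a fall of the size seen with MS023 lies outside it. ITGB8 was 4.01, 4.07 and 4.09 and then 3.93, 3.85 and 4.01, and its interval ran from -0.28 to 0.03. The widest interval of the 7 was that of ITGAL, from -0.69 to 0.16. ITGA3 (0.73, 0.76 and 0.38 in isgCtrl, 0.46, 0.26 and 0.41 in PRMT1-KO) and ITGB4 (0.51, 0.79 and 0.31, and 0.47, 1.07 and 1.42) had no group mean above 1 here and were not tested.

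**Figure D3:**
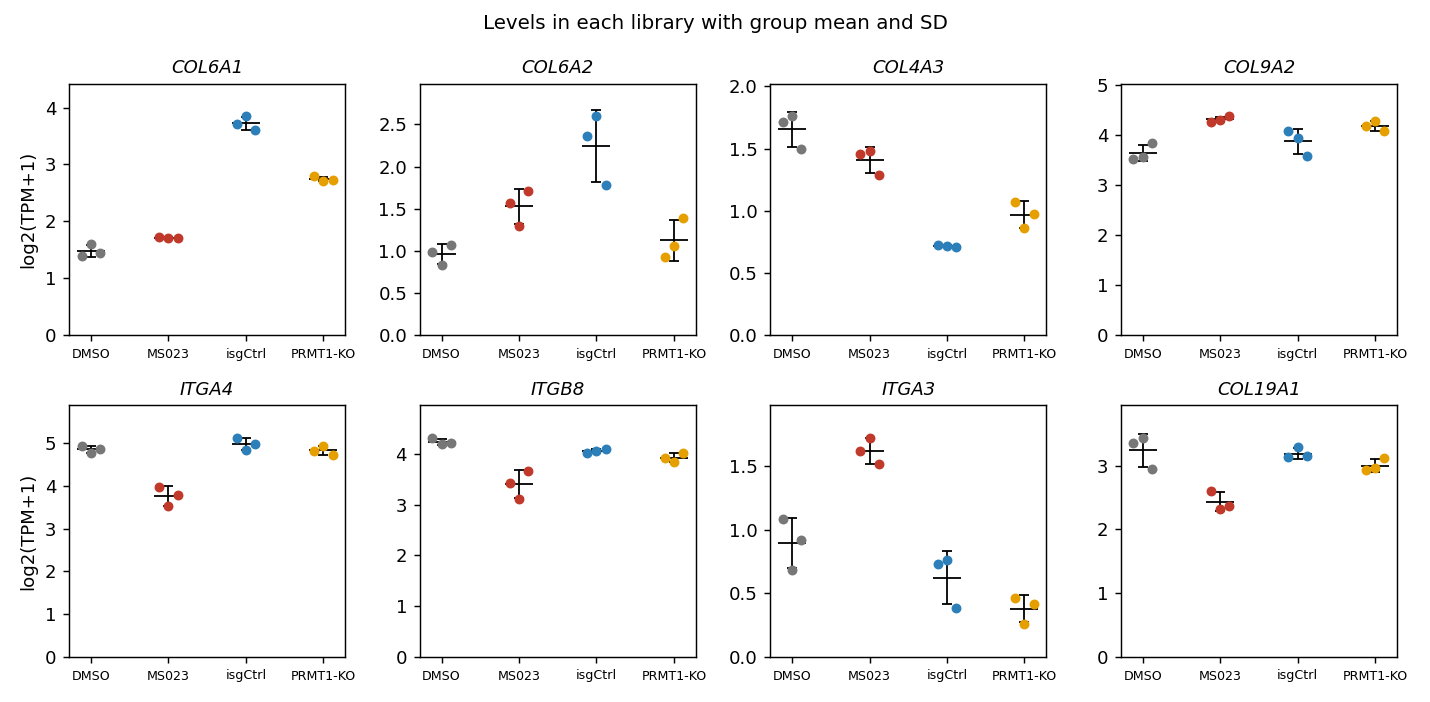
Levels of 8 genes in each library by group. The vertical axes are log2(TPM+1) and start at 0, points are the 3 libraries of a group, and the bars are the group mean and SD. ITGA4, ITGB8 and COL19A1 are lower and ITGA3 and COL9A2 higher with MS023 than in DMSO, while COL6A1 and COL6A2 are highest in isgCtrl.

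The effects of MS023 and of PRMT1-KO were then compared with each other, each against its own control, in one fit of all 12 libraries. The effects differed at an adjusted p under 0.05 for 10 of the 24 genes, 3 higher and 7 lower with MS023. Of all 13256 genes tested 35.6% differed, 14.4% higher and 21.2% lower. ITGA3 passed the filter on low values through MS023 only, ITGB4 through DMSO only, and COL3A1, COL18A1 and COL4A5 through isgCtrl only. The count of 10 is therefore a description. Among these 10, the differences of COL6A1 and COL6A2 were the farthest from 0, at 1.20 (SE 0.10) and 1.69 (SE 0.29) on the log2 scale, for which limma gave BH-adjusted p of 1.53e-05 and 0.00131. The difference was 0.97 for ITGA3, -0.95 for ITGA4, -0.72 for ITGB8 and -0.94 for ITGB4, and limma gave BH-adjusted p of 0.00203, 0.00138, 0.00687 and 0.0415. The difference of COL1A1, 1.74 with an interval from 0.25 to 3.24, did not pass (limma, BH-adjusted p = 0.0682). Smaller differences that also passed were those of COL19A1 (-0.62), COL4A3 (-0.50), ITGB1 (-0.33) and ITGAE (-0.29). Without isgCtrl 1 and isgCtrl 2, with a single isgCtrl library left, some of the 10 no longer passed. Their differences were then -0.66 for COL19A1, -0.51 for COL4A3, -0.37 for ITGB1, -0.33 for ITGAE, -0.68 for ITGB8 and -1.17 for ITGB4.

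The control groups also differed from each other in some of these genes, so that the effects started from unequal levels. Between isgCtrl and DMSO 5 of 23 tested genes (21.7%) were called, 2 higher and 3 lower, against 13.9% of all 12661 genes, 7.23% higher and 6.7% lower. Groups did not overlap in 8 of the 23 (34.8%), against 51.7% of all genes, and the median log2 fold change was 0.02 over the 23 and 0.07 over all genes. COL6A2, COL1A1, COL1A2, COL3A1, COL18A1 and COL4A5 passed the filter through isgCtrl only, and COL4A3 and ITGB4 through DMSO only. COL6A2, COL4A3 and ITGB4 are among the 5 called, so the count is a description. The comparison shares its controls with both comparisons above, so the values stand side by side and are not independent of them.

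COL6A1 was 6.81 times as high in isgCtrl as in DMSO by mean TPM, a log2 fold change of 2.24 (SE 0.09, limma, BH-adjusted p = 9.79e-05), and it was called under all 15 alternatives. In PRMT1-KO it was lower than in isgCtrl but still above every DMSO library, at 2.72 to 2.79 against 1.40 to 1.60. COL6A2 was 1.28 higher in isgCtrl on the log2 scale (SE 0.21, limma, BH-adjusted p = 0.00793), but in PRMT1-KO it spanned 0.92 to 1.39 and overlapped DMSO at 0.83 to 1.07. Without isgCtrl 1 and isgCtrl 2 the value of COL6A2 was 0.81 and that of COL6A1 was 2.13, with a single isgCtrl library left. Summed TPM of the 5 beaded filament collagens was 2.72 to 2.92 in DMSO, 4.01 to 5.05 with MS023, 6.75 to 7.44 in PRMT1-KO, and 13.7 to 19.1 in isgCtrl.

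COL4A3 was lower in the guide groups. It was 1.71, 1.76 and 1.50 in DMSO, 1.45, 1.48 and 1.29 with MS023, 0.72, 0.71 and 0.70 in isgCtrl and 1.07, 0.86 and 0.97 in PRMT1-KO, and isgCtrl lay 0.94 below DMSO (SE 0.08, limma, BH-adjusted p = 0.00124). It entered that test through DMSO only. Without isgCtrl 1 and isgCtrl 2 the value was -0.95 and was not called, with a single isgCtrl library left. COL4A4, which shares its promoter region, was 1.75, 1.71 and 1.89 in DMSO and 1.87, 0.98 and 1.09 in isgCtrl, a log2 fold change of -0.47 with an interval from -1.06 to 0.12. With MS023 it was 2.04, 1.39 and 2.49 and in PRMT1-KO 1.23, 1.43 and 1.90, a wider spread than that of COL4A3 in each of these groups.

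Of the integrins ITGAV and ITGB4 were called lower in isgCtrl, both close to the threshold. ITGAV was 2.28, 2.07 and 2.39 in isgCtrl and fell by 0.54 against DMSO (SE 0.16, limma, BH-adjusted p = 0.0439), a call that held under 6 of 15 alternatives. ITGB4 fell by 0.50 (SE 0.15, limma, BH-adjusted p = 0.0488) and was called under 3 of 12. With single libraries left out, the call of ITGAV was kept only without DMSO 3. That of ITGB4 was lost without isgCtrl 1 or isgCtrl 3 and kept without isgCtrl 2 or DMSO 2, and the gene was not tested without DMSO 1 or DMSO 3. Without isgCtrl 1 and isgCtrl 2 together, ITGAV was -0.40 and ITGB4 -0.73, and neither was called, with a single isgCtrl library left. ITGB1 was 4.84, 4.89 and 4.82 in isgCtrl, without overlap with DMSO, and its log2 fold change of -0.33 passed the p threshold but not the fold threshold (SE 0.06, limma, BH-adjusted p = 0.0096).

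The ligands, receptors, adaptors and synthesis genes around the integrins and collagens were read from 4 lists, and the same 30.9% of all genes tested is the background for their counts with MS023. Of 12 tested integrin ligands 6 rose and 1 fell (58.3% called), with a median log2 fold change of 0.55. LAMB3, CDH1, LAMB1 and FBN1 passed the filter on low values through MS023 only, and 3 of these are among the 6, so count and median are descriptions. FN1, the fibronectin bound by several integrins, rose from 2.20, 2.47 and 1.87 to 3.69, 4.14 and 4.02, a log2 fold change of 1.77 (SE 0.19, limma, BH-adjusted p = 7.8e-04). The laminin chain LAMB3 rose by 1.84, from 0.35 to 0.52 in DMSO to 2.14 to 2.42, and the laminin chain LAMC1 fell by 0.97. CDH1, the E-cadherin bound by the ITGAE product, rose by 1.21, and ICAM1 and ICAM2, the ligands of the ITGAL product, rose by 0.87 and 0.97, and the laminin chain LAMB1 by 0.54. VCAM1, the ligand of the ITGA4 product, was at or below 0.10 in all 12 libraries.

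Of 5 tested collagen receptors that are not integrins 3 rose and none fell with MS023, with a median log2 fold change of 0.51, and DDR2, one of the 3, passed the filter on low values through MS023 only. CD44, which binds hyaluronan and collagen, rose from 5.39, 5.26 and 5.52 to 7.10, 6.80 and 7.11 (log2 fold change 1.61, SE 0.12, limma, BH-adjusted p = 2.35e-04). The collagen-activated kinase DDR2 rose by 0.62 and LAIR1, an inhibitory collagen receptor of leukocytes, by 0.51. SDC1, the heparan sulfate carrier that marks plasma cells, had a log2 fold change of 0.39, under the fold threshold.

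Of 30 tested integrin activators and adaptors 5 rose, 3 fell and 22 were not called (26.7% called), with a median log2 fold change of -0.01. The focal adhesion protein ZYX rose by 1.19, the actin crosslinker FLNA by 0.87 and the scaffold NEDD9 by 0.79, PTK2B and LPXN rose by 0.69 and 0.67, and the tetraspanin CD9 fell by 0.87. TNS3 and ITGB1BP1 fell by 0.56 and 0.54. TLN1, the talin that activates integrins, was 4.45 to 4.62 in DMSO and 4.88 to 4.92 with MS023 (0.35, under the fold threshold), and FERMT3, the kindlin of blood cells, spanned 0.14 to 0.97 in DMSO and 0.23 to 1.29 with MS023.

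Of 17 tested enzymes and chaperones of collagen synthesis 3 rose and 1 fell with MS023 (23.5% called), with a median log2 fold change of 0.07. P4HB, a subunit of prolyl hydroxylase and a disulfide isomerase, rose from 9.01, 8.97 and 9.10 to 9.84, 9.82 and 9.82, a log2 fold change of 0.80 (SE 0.06, limma, BH-adjusted p = 2.98e-04). The prolyl hydroxylase P4HA2 rose by 1.11 and the lysyl hydroxylase PLOD1 by 0.59. CRTAP, which acts in prolyl hydroxylation of collagen, fell by 1.47, from 4.79 to 5.18 in DMSO to 3.12 to 3.72. The collagen chaperone SERPINH1 was 2.17 to 2.32 in DMSO and 2.46 to 2.75 with MS023, a log2 fold change of 0.33 under the fold threshold.

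In PRMT1-KO none of the genes of these 4 lists was called by limma. Tested were 8 ligands, 4 receptors, 29 activators and adaptors and 18 synthesis genes. Of all genes 0.781% were called there, so the absence of calls in lists of this size says little about them. At an unadjusted p under 0.05 there were 0, 1, 7 and 4 of them, against 18.6% of all genes. FN1 was 3.04, 3.36 and 0.91 in isgCtrl 1, 2 and 3, the same split as in the low collagens picked above, and 1.74, 1.43 and 1.53 in PRMT1-KO. Between isgCtrl and DMSO, where 13.9% of all genes were called, 8 of 29 activators and adaptors were called, among them CD9 with -2.95 and PTK2B with -2.20, and 5 of 18 synthesis genes, with PPIB (-0.73), SERPINH1 (-0.69), P4HA1 (-0.61) and P4HB (-0.61) lower and PCOLCE2 (0.84) higher. PCOLCE2 passed the filter through isgCtrl only. Of 8 ligands 1 was called there, ICAM2 with -1.32, and of 4 receptors none, with 0 at an unadjusted p under 0.05 in limma, a level reached by 46.9% of all genes.

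The remaining 46 genes had no group mean above 1 and were not tested. Of these, 41 stayed below 1 in every library, 28 stayed below 0.5, and COL6A5 was at 0 in all 12. Closest to the threshold were COL8A1 with a highest group mean of 0.99 and ITGA6 with 0.93 on the lower side, and ITGB4 with 1.03 and COL3A1 with 1.07 on the upper side. A single library above 1 was the case for COL25A1 (1.16 in MS023 1), COL5A2 (1.12 in PRMT1-KO 3), ITGA6 (1.12 in MS023 3) and COL4A2 (1.02 in MS023 3). COL8A1, a network-forming collagen of vessel walls, was 1.26 and 1.68 in isgCtrl 1 and 2 and 1.14 in MS023 3, and at most 0.15 in the other 9.

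Some of the low integrins differed between groups in every library, which is given as a description only. ITGA8 was 0.59, 0.80 and 0.65 in DMSO and 0.66, 0.54 and 0.55 with MS023, but at most 0.08 in the 6 libraries with guides. ITGAX and ITGAD, alpha subunits of leukocyte integrins that pair with ITGB2, were 0.69, 0.71 and 0.56 and 0.65, 0.43 and 0.86 with MS023, and at most 0.28 and 0.21 in the other groups. ITGA7, a laminin-binding alpha subunit of muscle, was 0.95, 0.92 and 0.84 in DMSO and at most 0.70 elsewhere. Values of this size are below 1 TPM, where the pseudocount of 1 compresses differences. In bulk RNA a change in the number of cells that express such a gene and a change in the RNA per cell cannot be told apart.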

How the data were processed

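The authors deposited gene values as log2(TPM+1), used here as they stand. By the study's Methods and the submitters' processing notes, reads were checked with FastQC, trimmed with Trimmomatic, aligned to hg38 by STAR using the GENCODE V35 annotation, then quantified by Salmon. TPM are scaled to the same total in each library, so depth could not be recovered and no count model was run. Groups were taken from the labels, with 3 libraries each and none left out.

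A gene entered a test where its mean log2(TPM+1) in at least 1 of the compared groups exceeded 1. Tests were run in limma (3.58.1, under R 4.3.3) without a trend in eBayes, on the 6 libraries of a comparison, or on all 12 for the difference between effects. P-values were adjusted by Benjamini-Hochberg over all genes tested. A call needed an adjusted p under 0.05 together with a log2 fold change beyond 0.48 in either direction, and differences between effects at an adjusted p under 0.05. With 3 libraries against 3, an exact two-sided permutation test cannot go below p = 0.1, so none is given for single genes. Fold changes are differences of log2(TPM+1), which understates changes of low genes. The code was tested on simulated data. Every integrin or collagen gene with a group mean above 1 is named, the others by counts, range and the largest patterns, the latter picked after their values were seen. The members and lists were chosen with earlier results of these data known. Positions are from GENCODE v44 on GRCh38 and promoters from RefSeq. Alternatives were other filters, a pseudocount of 0.1, median-ratio and quantile scaling, eBayes with trend, a replicate block and one fit of all libraries. Each library was also left out in turn and, chosen after seeing the data, isgCtrl 1 and isgCtrl 2 together. A fold threshold of 1 was applied to the counts only, and the alternatives counted for single genes leave it out.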

Additional observations from a re-analysis of the deposited data

Results flagged for a closer look

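The effect of MS023 against DMSO and that of PRMT1-KO against isgCtrl differed, by the interaction term of limma with Benjamini-Hochberg adjustment over 13256 genes, in 10 of the 24 integrin and collagen genes tested, against 35.6% of all genes. The difference of the 2 effects was positive for COL6A2 (1.69), COL6A1 (1.20) and ITGA3 (0.97). For COL6A1 and COL6A2 the effect of MS023 was 0.23 and 0.56 and that of PRMT1-KO -0.97 and -1.12, from controls in which these genes were at unequal levels. ITGA3 was not tested in PRMT1-KO on its own, where all libraries were below 1, and it entered the test of the difference through MS023 only.

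It was negative for ITGA4 (-0.95), ITGB4 (-0.94), ITGB8 (-0.72), COL19A1 (-0.62), COL4A3 (-0.50), ITGB1 (-0.33) and ITGAE (-0.29). ITGA4 was called under all 20 alternatives in which this difference was tested, as was COL6A1, and COL6A2 and ITGA3 under all 19 of theirs. ITGB1 passed under 7 of 20, ITGB4 under 6 of 17 and ITGAE under 14 of 20. In ITGB4, which entered through DMSO only, the spread within PRMT1-KO, from 0.47 to 1.42, is as wide as the difference.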

How the results depend on the processing

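Of 89 values of single genes over the 4 comparisons, 24 were called. The fold threshold of 1 was applied to counts only. Under every other alternative in which they were tested, 10 of the 24 were called. These were 5 with MS023 (ITGA4, ITGB8, ITGA3, COL9A2, COL19A1), 1 between the controls (COL6A1) and 4 in the difference of effects. Of the 5 with MS023 only ITGA4 passed a fold threshold of 1. No called value changed sign. The count with MS023 (8) was 4 with log2(TPM+1) above 1 required in every sample, 1 with a fold threshold of 1, and 6 to 10 with single libraries left out. The count in PRMT1-KO (1) was 2 with a trend in eBayes and 2 with all 12 libraries in one fit. It was 0 with the replicate block and with a fold threshold of 1, and 0 to 1 with single libraries left out. Over all genes the share called there fell from 0.781% to 0 with the block. With single libraries left out it was 0.0162% to 0.17%. The count between isgCtrl and DMSO (5) was 3 with the filter applied after the adjustment, with a pseudocount of 0.1 and with the replicate block. It was 2 with the stricter filter and with a fold threshold of 1, and 4 to 6 with single libraries left out. The count for the difference of effects (10) was 6 with the stricter filter, and 6 to 13 with single libraries left out, 6 being without PRMT1-KO 3. Without isgCtrl 1 and isgCtrl 2 together a single isgCtrl library was left. Fewer genes were then called in each comparison that uses isgCtrl, among all genes too. The causes were not tested, except that the stricter filter tests fewer genes. The labels do not say whether replicate numbers pair the libraries. Deviations of same-numbered libraries had mean correlations of 0.017 between DMSO and MS023 and -0.014 between isgCtrl and PRMT1-KO. Over all pairs of groups the means ran from -0.026 (DMSO and isgCtrl) to 0.033 (MS023 and isgCtrl). With so few pairs these values cannot exclude a pairing. With the replicate block the counts with MS023 and for the difference of effects were 8 and 11. Over all genes, the share of calls that were lower went with median-ratio and quantile scaling from 62.4% to 49.1% and 50.1% with MS023, from 46.9% to 31.3% and 30.1% in PRMT1-KO, from 48.1% to 65.2% and 53.3% in isgCtrl against DMSO, and from 59.7% to 46.1% and 51.4% for the difference of effects. Values that were not called crossed 0 for 10 genes and comparisons. With single libraries left out, the value with MS023 ran from -0.28 to 0.059 for COL27A1 (above 0 without DMSO 2) and from -0.071 to 0.48 for COL4A4 (below 0 without MS023 3). In PRMT1-KO ITGAV ran from -0.084 to 0.093 and was -0.12 without isgCtrl 1 and isgCtrl 2, where ITGAL was 0.0037. Between the controls COL19A1 ran from -0.20 to 0.041, COL24A1 from -0.025 to 0.084 and COL27A1 from -0.25 to 0.083. With median-ratio scaling COL24A1 was -0.052, and without isgCtrl 1 and isgCtrl 2 COL9A2 was -0.055. In the difference of effects COL4A4 ran from -0.30 to 0.27 and was 0.069 with median-ratio and 0.032 with quantile scaling, and COL4A5 ran from -0.10 to 0.28. A further 15 values that were not called were called under some alternative. Values below 1 TPM rest on few reads, and their counting error cannot be computed from TPM.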
